A study of Mus musculus with 13 samples.

Results

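Carbonic anhydrases were followed in the developing submandibular salivary gland of the mouse, as 10 genes chosen by symbol: Car2, Car3, Car4, Car5b, Car6, Car8, Car9, Car12, Car13 and Car14. All 10 were present in each of the 13 deposited tables, which hold 23364 genes, and all 10 passed the filter of reaching 1 FPKM (a read count scaled to the length of the gene and the total of the sample) in any sample, as did 14650 genes in all. The other 6 mouse genes with a Car symbol are described at the end. RNA came from whole glands dissected from C57BL/6 mice with no mutation or treatment. The study took embryos of E14.5 (3 samples, each a pool of glands of 3 animals), E16.5 and E18.5 (2 samples each, each a pool of 2 animals), pups of P5 (2 samples), and males of 4wk (2 samples) and 12wk (2 samples). The sex of the embryos and pups was not recorded in the methods. By stage these were 7 embryonic, 2 neonatal and 4 adult samples. A whole gland holds epithelium, nerve, vessels, stroma and any adjoining tissue, so that fewer cells of a type and less RNA per cell cannot be told apart in any value below.

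Carbonic anhydrases are zinc enzymes that convert carbon dioxide and water to bicarbonate and a proton, and the reverse. Bicarbonate buffers saliva and is exchanged for other ions along the ducts, and a salivary gland is known for exporting 1 isoform, Car6, into saliva. The remaining isoforms stay in or on the cell: Car2, Car3, Car8 and Car13 are cytosolic, Car5b is mitochondrial, Car4 is attached to the outer membrane by a lipid anchor, and Car9, Car12 and Car14 span the membrane with the catalytic domain outside.

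The catalytic zinc is held by 3 histidines, and the bases that encode the first pair of them are shown because they tell the catalytic members from Car8, the member known to lack the enzyme activity. Each stretch of 27 coding bases is read 5′ to 3′ from the GENCODE vM1 transcripts of mm9, the build of the deposited tables, and lies within 1 coding exon. The capitals mark the codons aligned with the first and the second zinc-binding histidine of Car2.
Car6, chr4:149571487-149571513, minus strand, exon 3: aaggcctttCACtttCACtgggggggt
Car2, chr3:14895060-14895086, plus strand, exon 3: atccagtttCACtttCACtggggctca
Car3, chr3:14866841-14866867, plus strand, exon 3: cgccaattcCATcttCACtggggctcc
Car13, chr3:14650697-14650723, plus strand, exon 3: cggcagttcCATttgCACtgggggtca
Car8, chr4:8148751-8148777, minus strand, exon 3: tatgaagttAGAtttCACtggggaaga
Car5b, chrX:160429337-160429363, minus strand, exon 4: aagcagtttCATtttCATtggggagcc
Car4, chr11:84777660-84777686, plus strand, exon 4: gtacagttgCACctgCACtggtcaaat
Car9, chr4:43521827-43521853, plus strand, exon 4: ttgcagttgCATctaCACtggggaact
Car12, chr9:66595445-66595471, plus strand, exon 4: gagcagctgCACttgCACtgggggaac
Car14, chr3:95704223-95704249, minus strand, exon 4: gcccagctcCACctgCACtggggtcag

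The third histidine codon was kept in all 10 genes, so that 9 of them had 3 of 3 zinc-binding histidine codons and Car8 had 2 of 3. In Car8 the first is H94R, with the residue of Car2 first and positions counted from the initiator methionine of Car2. Although the stretches resemble each other, the annotated coding transcripts of the 10 genes shared 0 words of 50 bases, the length of the sequenced reads, in any of the 45 pairs. A read from these transcripts thus matched no second member exactly. Car6 has 2 coding transcripts in this annotation, and 1 FPKM value per gene does not separate them.

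The depth behind the values, recovered from the steps of the FPKM, was between 17345305 and 37309531 reads on genes over the embryo, 42168626 and 48314162 for the P5 pair, and from 5817293 reads (4wk, replicate 1) up to 28431454 reads in the adult. The 10 most abundant genes of a sample took 5.93% to 16.501% of the summed FPKM in the embryo, 29.2% and 31.1% in both P5 samples and 48.1% to 61.1% in the adult. FPKM are shares of a sample, and the median gene was lower by 0.75 on the log2(FPKM + 1) scale in the adult than in the embryo and lower by 0.53 in the adult than at P5. Fold changes are therefore also given after rescaling each sample to its median ratio over the genes above 0 everywhere, which brought those medians to -0.08 and -0.05. E14.5 replicate 1 stood apart from the other E14.5 samples, with a summed level of 6 serous acinar markers of 33.4 FPKM against 462 and 390. In replicates 2 and 3 most of that sum was Dcpp1 (304 and 268 FPKM) and Dcpp2 (120 and 86.6). Replicate 1 also had the highest sum of 8 muscle markers (465 FPKM against 242 and 175) and of 4 neuron markers (52.4 against 35.6 and 34.8). The gland label held in that epithelial markers were present: Aqp5, the acinar water channel, was between 94.4 and 262 FPKM from E16.5 on. At E14.5 it was 0.57, 9.13 and 5.98 FPKM.

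Car6, the secreted isoform, rose from a low level in the embryo to one of the most abundant transcripts of the adult gland. Its FPKM was 10.001, 9.77 and 11.9 in E14.5 glands, 1.79 and 2.13 in E16.5 glands, 79.2 and 115 in E18.5 glands, 5403 and 5920 in P5 glands, 37319 and 39954 in 4wk glands, and 24401 and 22418 in 12wk glands. Replicates of a time point lay close together, within 1.45 times of each other, and no 2 time points overlapped. Among all genes of a sample Car6 ranked 11743 and 11711 in E16.5 glands, 852 and 578 in E18.5 glands, 9 in both P5 samples, 5 in both 4wk samples, and 7 and 8 at 12wk. At 4wk its transcripts were 4.51% and 4.59% of the summed FPKM of the gland.

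**Figure D1:**
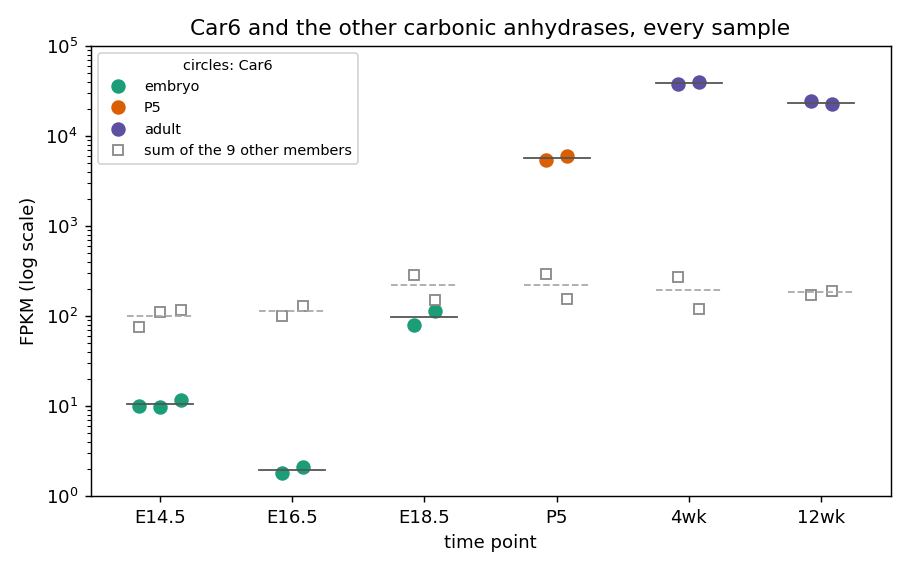
Car6 (filled circles, coloured by stage) and the sum of the 9 other carbonic anhydrases (open squares) in each of the 13 samples, as FPKM on a log axis against the time point, with short lines at the means. Car6 lies below the sum of the others in all 7 embryonic samples and above it in all samples from P5 on, at 22418 to 39954 FPKM in the adult, while the sum of the others stays between 68.6 and 286 FPKM in all 13 samples.

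From E16.5 to E18.5 Car6 rose by 5.03 ± 0.19 on the log2(FPKM + 1) scale (estimate ± SE, adjusted p = 1.1e-07 by limma with Benjamini-Hochberg adjustment over all genes tested). From E18.5 to P5 it rose by 5.87 ± 0.19 (limma adjusted p = 1e-08), and from P5 to 4wk by 2.77 ± 0.19 (limma adjusted p = 1.5e-06). A gene was called where this change was at least 1 in size and the adjusted p was below 0.1. In the first of these steps Car6 was the 1 member called, beside 2.94% of all genes tested. It was 1 of 2 members called in the second, beside 5.04%, and 1 of 4 in the third, beside 24.3%. The difference of 12wk from 4wk was -0.72 ± 0.19 (limma adjusted p = 0.029), under the size for a call, with both 12wk samples below both 4wk samples. Beside that last difference, Muc19, a mucin of the sublingual gland that lies against the submandibular gland, was 103 and 82.3 FPKM at 4wk and 0.03 and 2.19 at 12wk. Of the 6 acinar markers 1 was called lower at 12wk than at 4wk, beside 2.48% of all genes tested, and 5 were not called. Their sum was 17403 and 18142 FPKM in 4wk glands and 1493 and 4338 in 12wk glands. Most of it was Dcpp1 (5266 and 5803, then 614 and 2459) and Dcpp2 (11154 and 11418, then 146 and 1202). Aqp5 (262 and 215, then 141 and 137), Slc12a2 (179 and 184, then 91.4 and 129) and Lpo (355 and 391, then 333 and 277) were lower in both 12wk samples. Bhlha15, an acinar transcription factor, overlapped between the ages, at 187 and 131 FPKM and then 167 and 134. The part of Muc19 or of these markers in the values of Car6 was not tested, nor was that of Muc19 in the other members at any age.

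Between stages, Car6 was higher by 8.63 ± 1.12 at P5 than in the embryo (limma adjusted p = 0.00051) and by 11.03 ± 0.88 in the adult than in the embryo (limma adjusted p = 1.2e-07). The difference of adult from P5 was 2.41 ± 1.21 and was not called (limma adjusted p = 0.12), although all 4 adult samples exceeded both P5 samples. This fit takes 1 spread from all stages, and the 7 embryonic values of Car6 ran from 1.79 to 115 FPKM. In a fit with the 6 time points as groups, weighted equally within a stage, the same difference had a limma adjusted p of 6.6e-07. That fit takes its spread from within the time points, so more than the weights differs. In the stage fit the adjusted p was 0.032 with the embryo left out and 0.082 with rescaled values. Over all alternatives it ran from 6.6e-07 to 0.31.

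Car6 fell from E14.5 to E16.5, by 1.96 ± 0.17 (limma adjusted p = 4.5e-05), with both E16.5 samples below all 3 E14.5 samples. It was the 1 member called in this step, in which 0.983% of all genes tested were called lower and 5.15% in either direction. The E14.5 values were read against the 15 genes with a mean of at least 10000 FPKM at 12wk, a limit chosen after the values were seen. All 15 lay at E14.5 between 0.0283% and 0.0593% of their own 12wk mean, with Car6 at 0.045%. At E16.5 the same genes ran from 0% to 5.11% of it. The E14.5 mean was above the E16.5 mean in 12 of the 15, and 10 were called lower at E16.5 and 3 higher. Klk1b22 and Klk1b16, kallikreins of the granular ducts, were 6.27 and 4.93 FPKM at E14.5 and listed at 0 in both E16.5 samples, and Scgb1b27, a secretoglobin, was 47.3 FPKM at E14.5 and 3.13 at E16.5. The part of this common level in the E14.5 value of Car6 was not tested. Without the 3 E14.5 samples, Car6 was higher at P5 than in the embryo by 8.39 ± 1.37 (limma adjusted p = 0.0052) and in the adult by 10.80 ± 1.12 (limma adjusted p = 1.2e-05), an alternative added after the data were seen.

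**Figure D2:**
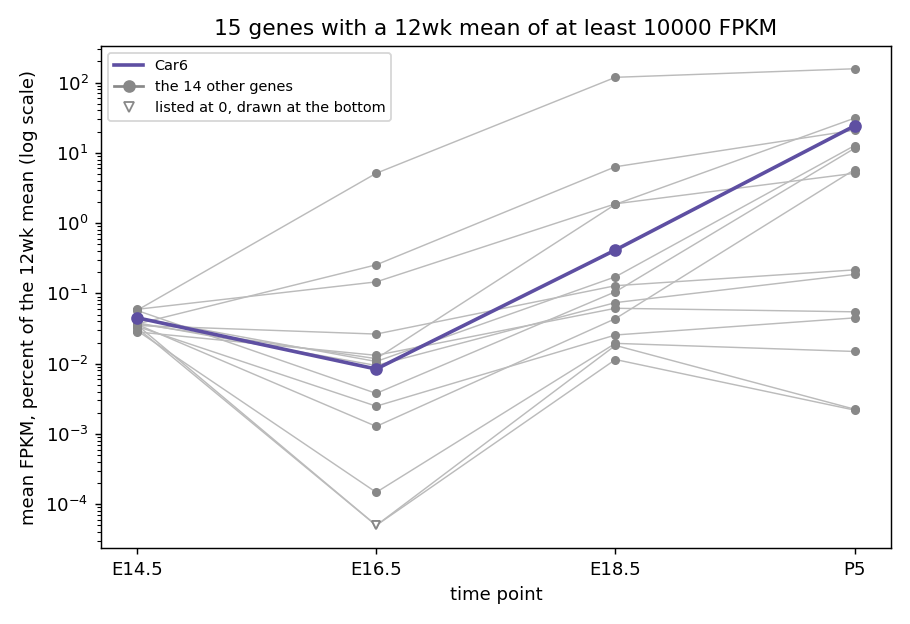
Mean FPKM of 15 genes that reach 10000 FPKM or more at 12wk, as a percent of each gene's own 12wk mean on a log axis, at E14.5, E16.5, E18.5 and P5, with Car6 in colour and values listed at 0 drawn as triangles at the bottom. At E14.5 all 15 lie between 0.0283% and 0.0593%, and at E16.5 they spread from 0% to 5.11%.

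Within a sample the share of Car6 in the summed FPKM of the 10 carbonic anhydrases does not depend on scaling between samples. It was 12.7%, 8.29% and 9.51% in E14.5 glands, 1.81% and 1.68% in E16.5 glands, 21.7% and 43.5% in E18.5 glands, 94.98% and 97.5% in P5 glands, 99.3% and 99.7% in 4wk glands, and 99.3% and 99.2% in 12wk glands. The most abundant member was Car12 in all 5 samples of E14.5 and E16.5, Car3 in E18.5 replicate 1, and Car6 in the 7 samples after that. Against Car12 in the same sample, Car6 was at 0.0270 and 0.0340 of its level at E16.5 and at 1050 and 1196 times its level at 4wk. At 12wk this ratio was 287 and 331, below both 4wk values.

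The cytosolic enzyme Car2, the fast and widely expressed isoform, was at a steady level up to P5 and rose after it. Its FPKM was 13.04, 11.5 and 13.3 in E14.5 glands, 11.8 and 9.39 in E16.5 glands, 10.8 and 8.82 in E18.5 glands, 12.1 and 10.3 in P5 glands, 24.4 and 45.7 in 4wk glands, and 20.7 and 22.8 in 12wk glands. Every adult sample exceeded every earlier one. The difference of adult from embryo was 1.21 ± 0.19 (limma adjusted p = 5.6e-05) and of adult from P5 1.20 ± 0.26 (limma adjusted p = 0.0029), and after rescaling 2.11 and 1.86. The size rests in part on 4wk replicate 2: without that sample these differences were 0.96 and 0.96, with adjusted p of 5.8e-05 and 0.0022, under the size for a call. Between P5 and the embryo Car2 differed by 0.00 ± 0.24, a value that rescaling moved to 0.24.

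Car13, a second active cytosolic isoform, was higher in every adult sample than in every earlier one. It was at 5.10, 11.8 and 10.3 FPKM in E14.5 glands, 12.9 and 10.6 in E16.5 glands, 11.9 and 10.1 in E18.5 glands, 9.54 and 9.47 in P5 glands, 23.3 and 22.3 in 4wk glands, and 46.0 and 46.3 in 12wk glands. The lowest value is that of E14.5 replicate 1, the sample with few acinar marker transcripts and with more muscle and neuron marker transcripts than the other E14.5 samples. Car13 was higher in the adult than in the embryo by 1.60 ± 0.25 (limma adjusted p = 5e-05) and than at P5 by 1.67 ± 0.34 (limma adjusted p = 0.002), or by 2.49 and 2.33 after rescaling. Already at 4wk it exceeded P5 by 1.18 ± 0.27 (limma adjusted p = 0.0037). The further difference of 12wk from 4wk was 0.99 ± 0.27 (limma adjusted p = 0.039), just under the size for a call, and 1.01 after rescaling. Markers of cell types also differed between the adult and the earlier samples. Markers of the granular duct, of which 4 of 5 were tested and all 4 were called higher in the adult than at P5 and than in the embryo, summed to 10.9 to 130.01 FPKM in the embryo, 563 and 599 in P5 glands, 28480 and 33200 in 4wk glands, and 44367 and 47014 in 12wk glands, with Ren1 at or near 0 in every sample. All 4 mesenchyme markers were called lower in both comparisons, and summed to 911 to 1630 FPKM in the embryo, 1016 and 906 in P5 glands and 28.8 to 187 in the adult. From 4wk to 12wk the granular duct sum was higher and the mesenchyme sum lower, while Car13 was higher and Car2 lower. Among the other lists, 3 of 3 duct ionocyte and 5 of 6 serous acinar markers were called higher in the adult than in the embryo. All 4 endothelial markers were called lower. Against P5 these counts were 1, 0 and 4. Also against the embryo, 4 of 6 adipocyte markers were called higher, and of 4 myoepithelial markers 2 higher and 1 lower. Called lower were 6 of 8 muscle, 3 of 4 tested erythroid and 3 of 3 tested neuron markers. Against P5, 3 adipocyte markers and 1 each of the erythroid, immune and neuron markers were called lower. Of all genes tested 5.58% were called higher and 38.0% lower than in the embryo, and 2.31% and 20.8% than at P5. The part of any of these markers in the values of Car2 and Car13 was not tested.

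Car8, the member without enzyme activity, which is known to bind the inositol trisphosphate receptor, had its highest values around birth. It was at 4.92, 4.70 and 4.51 FPKM in E14.5 glands, 6.23 and 6.31 in E16.5 glands, 8.76 and 9.35 in E18.5 glands, 8.87 and 10.1 in P5 glands, 4.21 and 3.29 in 4wk glands, and 3.31 and 2.86 in 12wk glands. Each embryonic age lay wholly above the one before it. The steps from E14.5 to E16.5 (0.35 ± 0.13, limma adjusted p = 0.097) and from E16.5 to E18.5 (0.47 ± 0.15, limma adjusted p = 0.072) were under the size for a call. In the adult Car8 was lower than at P5 by 1.25 on deposited FPKM (SE 0.26, limma adjusted p = 0.0021) and by 0.69 after rescaling (limma adjusted p = 0.081), where the size no longer passed. The difference of adult from embryo, -0.71 ± 0.19 (limma adjusted p = 0.0034), turned to 0.062 after rescaling.

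Car3, a cytosolic isoform of low activity that is known from skeletal muscle and fat, differed widely between replicates from E18.5 to 4wk. It was at 2.205, 3.10 and 1.15 FPKM in E14.5 glands, 10.6 and 15.8 in E16.5 glands, 173 and 44.97 in E18.5 glands, 197 and 68.0 in P5 glands, 173 and 6.57 in 4wk glands, and 21.8 and 34.2 in 12wk glands. The replicates differed 3.85-fold at E18.5, 2.90-fold at P5 and 26.3-fold at 4wk. No comparison between stages passed: the difference of P5 from embryo was 3.24 ± 1.42 (limma adjusted p = 0.10), that of adult from P5 -1.87 ± 1.53 (limma adjusted p = 0.33), and that of adult from embryo 1.38 ± 1.11 (limma adjusted p = 0.27). From P5 to 4wk the sign itself depended on the replicate kept, at -3.95 without 4wk replicate 1 and 0.57 without 4wk replicate 2.

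Adipocyte markers moved with Car3 between the replicates. The 6 markers (Adipoq, Plin1, Lep, Cfd, Cidec and Retn) summed to 33.0 and 17.5 FPKM in E18.5 glands, 272 and 88.2 in P5 glands, 197 and 12.4 in 4wk glands, and 22.0 and 28.1 in 12wk glands. In each of these 4 pairs the sample with more Car3 also had the higher sum, and at P5 and 4wk all 6 of 6 markers were higher in replicate 1. Adipoq, which encodes the adipocyte hormone adiponectin, was 95.1 and 27.6 FPKM at P5 and 47.7 and 1.53 FPKM at 4wk. At E14.5 and E16.5 the 6 markers summed to at most 0.3 FPKM. The 8 muscle markers summed to 175 to 465 FPKM in E14.5 glands, 927 and 1212 in E16.5 glands, 6.4 and 43.1 in E18.5 glands, 11.4 and 3.7 in P5 glands, 36.4 and 1.8 in 4wk glands, and 2.1 and 1.4 in 12wk glands. Their order between replicates was that of Car3 at E16.5, P5 and 4wk and the opposite at E18.5 and 12wk. The part of either tissue in Car3 was not tested.

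**Figure D3:**
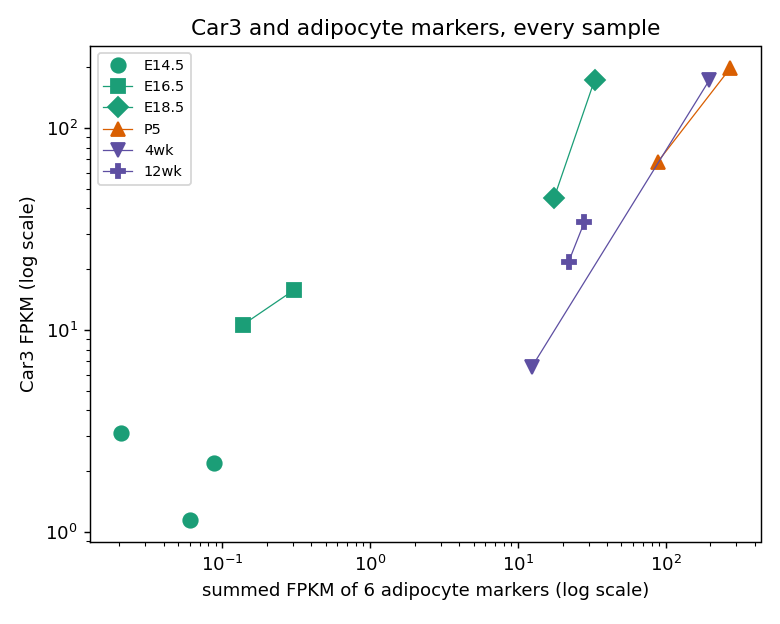
Car3 FPKM against the summed FPKM of 6 adipocyte markers in each of the 13 samples, both on log axes, with a symbol for each time point and a line joining the replicates of a pair. In all pairs from E16.5 on, the replicate with the higher marker sum has more Car3, as at 4wk with 197 against 12.4 FPKM of markers and 173 against 6.57 FPKM of Car3.

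The mitochondrial isoform Car5b, which supplies bicarbonate to biosynthesis, rose through development at low level. It was at 0.54, 0.34 and 0.34 FPKM in E14.5 glands, 0.89 and 0.71 in E16.5 glands, 2.16 and 1.501 in E18.5 glands, 2.81 and 3.19 in P5 glands, 5.48 and 3.83 in 4wk glands, and 2.63 and 2.96 in 12wk glands. Up to 4wk each age lay above the one before it without overlap. Car5b was higher at P5 than in the embryo by 1.12 ± 0.31 (limma adjusted p = 0.019) and in the adult by 1.33 ± 0.24 (limma adjusted p = 0.00021), or by 1.19 and 1.94 after rescaling. Without either one of the P5 samples the first difference was 1.19 or 1.05 with an adjusted p of 0.13 or 0.16, and without the 3 E14.5 samples it was 0.83. Car5b lies on the X chromosome, and Xist, the RNA of the inactive X, ran from 13.4 to 51.5 FPKM in the embryonic samples and was at most 0.05 from P5 on. Ddx3y, a gene of the Y chromosome, was 4.10 to 16.7 FPKM in the embryonic samples and 9.64 to 18.2 from P5 on. In the comparisons of P5 and of the adult with the embryo, sex and stage cannot be told apart.

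Among the membrane isoforms Car12 was the most abundant in all 13 samples. Its FPKM was 39.5, 74.8 and 81.5 in E14.5 glands, 52.8 and 78.9 in E16.5 glands, 78.1 and 72.1 in E18.5 glands, 46.9 and 48.5 in P5 glands, 35.5 and 33.4 in 4wk glands, and 73.8 and 78.0 in 12wk glands. On deposited FPKM the lowest values were those of the 4wk samples, and E14.5 replicate 1 was the lowest of the embryo. After rescaling E14.5 replicate 1 was the lowest of all (29.4), and the 4wk samples (49.7 and 54.1) lay above the P5 samples (43.0 and 47.1), so that the difference of 4wk from P5 turned from -0.46 to 0.20. The sole step called was from 4wk to 12wk, a rise of 1.12 ± 0.28 (limma adjusted p = 0.028) and of 1.14 after rescaling. It was 1 member of 10, beside 5.15% of all genes, and its adjusted p was 0.13 or 0.15 without either one of the 12wk samples. The values of Muc19, Dcpp1 and Dcpp2 at these ages are given above, and their part was not tested. The difference of adult from embryo was -0.37 ± 0.26 (limma adjusted p = 0.21) and turned to 0.56 after rescaling.

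Car4, the lipid-anchored isoform known from capillaries and from secretory epithelia, was at 1.04, 0.49 and 0.14 FPKM in E14.5 glands, 0.49 and 0.47 in E16.5 glands, 0.84 and 0.83 in E18.5 glands, 6.53 and 1.62 in P5 glands, 2.64 and 1.55 in 4wk glands, and 1.97 and 1.87 in 12wk glands. All samples from P5 on exceeded all embryonic ones. The difference of P5 from embryo was 1.48 ± 0.31 (limma adjusted p = 0.0058), and that from E18.5 was 1.28 ± 0.41 (limma adjusted p = 0.051). Both rest on P5 replicate 1, which held 410 reads of Car4 against 89 in replicate 2 and also had the higher sum of adipocyte markers: without it they were 0.72 (limma adjusted p = 0.16) and 0.51 (limma adjusted p = 0.40). The adult exceeded the embryo by 0.91 ± 0.25 (limma adjusted p = 0.004), under the size for a call, and by 1.44 after rescaling, over it. The 4 endothelial markers summed to 87.9 FPKM in P5 replicate 1 and 65.8 in replicate 2, and the part of fat or vessels in Car4 was not tested. The 4wk values rest on 20 and 16 reads.

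Car9, a transmembrane isoform that is known as a target of the hypoxia response, stayed near the limit of 1 FPKM. It was at 0.69, 0.20 and 0.48 FPKM in E14.5 glands, 1.22 and 1.63 in E16.5 glands, 0.50 and 1.42 in E18.5 glands, 1.45 and 1.15 in P5 glands, 1.05 and 0.38 in 4wk glands, and 0.14 and 0.18 in 12wk glands. The step from E14.5 to E16.5 (0.75 ± 0.24, limma adjusted p = 0.053) was under the size for a call. On deposited FPKM the adult samples, with 6 to 12 reads each, all lay below the P5 samples, by -0.71 ± 0.32 (limma adjusted p = 0.081). After rescaling 4wk replicate 1 (1.47) lay above both P5 samples (1.33 and 1.12) and the difference was -0.49 (limma adjusted p = 0.27). Of 10 genes known to be induced by hypoxia, 4 were called lower at P5 than in the embryo and 6 were not called, beside 8.14% of all genes called lower, with a median difference of -0.37 where that of all genes was -0.25. In the adult against the embryo 5 were called lower and 1 higher, beside 38.0% and 5.58% of all genes. The 3 largest of these differences were those of Vegfa, the vascular growth factor (2.48), Ankrd37 (-1.82) and Ldha, a lactate dehydrogenase (-1.68).

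Car14, the other transmembrane isoform, was found chiefly in the early embryo. It was at 1.56, 1.12 and 1.20 FPKM in E14.5 glands, 0.58 and 0.99 in E16.5 glands, 0.14 and 0 in E18.5 glands, 0.20 and 0.10 in P5 glands, 0 and 0 in 4wk glands, and 0 and 0.02 in 12wk glands. In reads these were 46 to 52 per E14.5 sample and 1 read in the 4 adult samples together. A count of 0 allows up to 3 reads, or 0.32 and 0.23 FPKM in the shallow 4wk samples, counting error only. The differences of E18.5 from E16.5 (-0.73 ± 0.17, limma adjusted p = 0.023) and of adult from embryo (-0.77 ± 0.23, limma adjusted p = 0.0083) were under the size for a call on a scale that adds 1 FPKM to every value. With a pseudocount of 0.1 they were -2.47 (limma adjusted p = 0.018) and -2.62 (limma adjusted p = 0.0033), both called. The summed level of the neuron markers was 34.8 to 52.4 FPKM in E14.5 glands, 22.1 and 18.4 in E16.5 glands, 12.3 and 16.3 in E18.5 glands, 9.8 and 20.7 in P5 glands, and at most 2.9 in the adult. Of the 4 neuron markers 3 were tested, and all 3 were called lower in the adult than in the embryo, as were the 4 mesenchyme markers. Of all genes tested 38.0% were called lower in this comparison. Their part in Car14 was not tested.

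**Figure D4:**
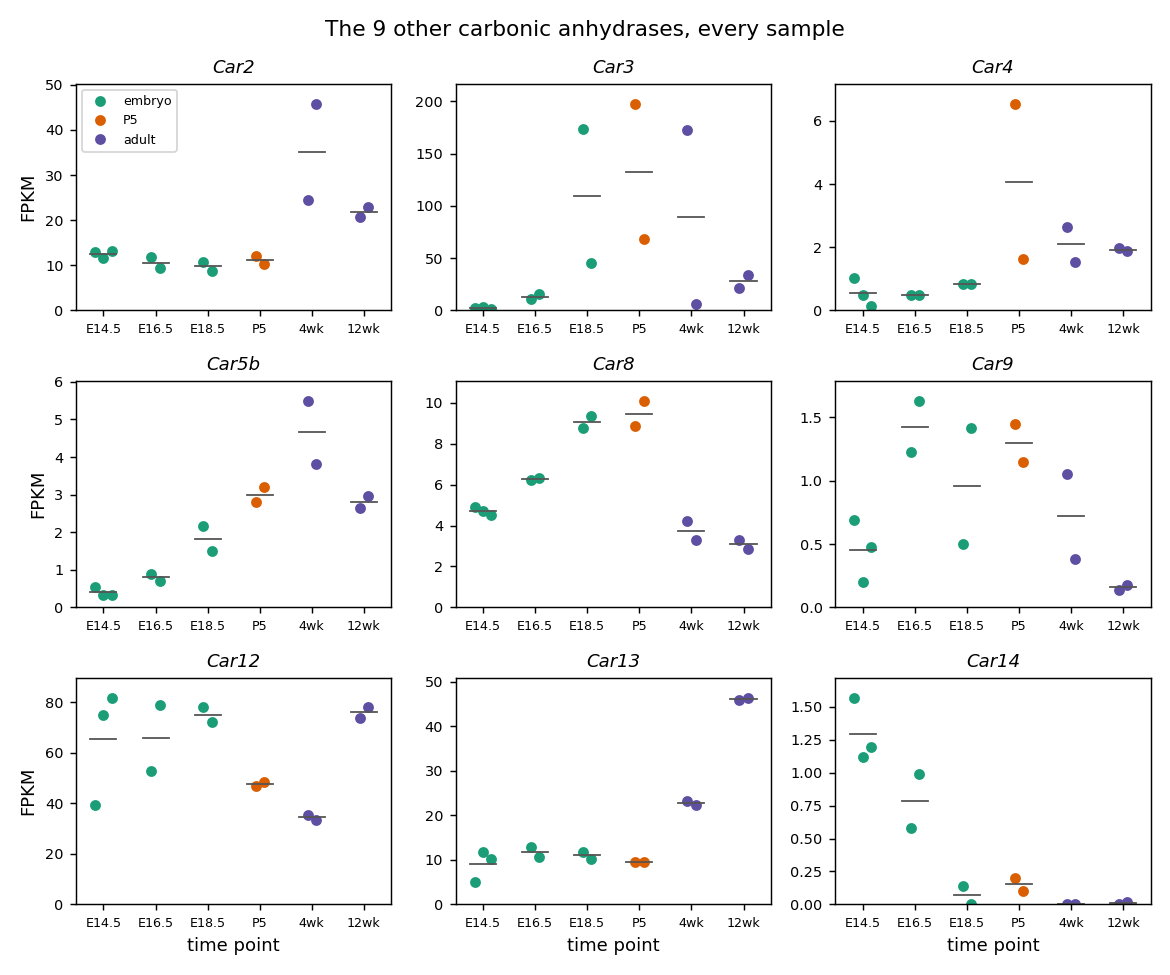
FPKM of the 9 other carbonic anhydrases in each of the 13 samples against the time point, on linear axes that start at 0 and differ between panels, with points coloured by stage and short lines at the means. Car2 and Car13 are highest in the adult, Car8 at E18.5 and P5 and Car14 at E14.5, while the replicates of Car3 lie far apart in E18.5 (173 and 44.97), P5 (197 and 68.0) and 4wk (173 and 6.57).

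Counted over the family, 3 of 10 members were called at P5 against the embryo (Car4, Car5b and Car6, all higher), beside 12.3% of all genes tested, 4.14% higher and 8.14% lower. In the adult against P5 3 of 10 were called (Car2 and Car13 higher, Car8 lower), beside 23.1%, of which 2.31% were higher and 20.8% lower. In the adult against the embryo 4 of 10 were called (Car2, Car5b, Car6 and Car13, all higher), near the 43.6% of all genes, but those were 5.58% higher and 38.0% lower. All genes called were split into 606 higher and 1192 lower, 339 and 3046, and 818 and 5567 in the 3 comparisons, and after rescaling into 813 and 571, 887 and 1249, and 2019 and 2147. After rescaling, 3, 3 and 6 members were called in these comparisons, with Car3 and Car4 added in the last and Car6 in place of Car8 in the second. The samples of both stages did not overlap in 3, 6 and 6 members, beside 45.3%, 70.2% and 60.3% of the genes tested. The median member differed by 0.44, -0.05 and 1.06, where the median gene differed by -0.25, -0.53 and -0.75. In the 5 successive steps from E14.5 to 12wk 1, 1, 2, 4 and 1 members were called, where all genes tested gave 4.17% higher and 0.983% lower, 1.09% and 1.85%, 2.07% and 2.97%, 2.19% and 22.1%, and 2.68% and 2.48%. Adjacent ages did not overlap in 6, 6, 5, 8 and 6 members, beside 48.8%, 52.5%, 69.1%, 79.7% and 52.9% of the genes tested, so that lack of overlap between small groups was common. The comparisons share samples and are not independent of each other.

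**Figure D5:**
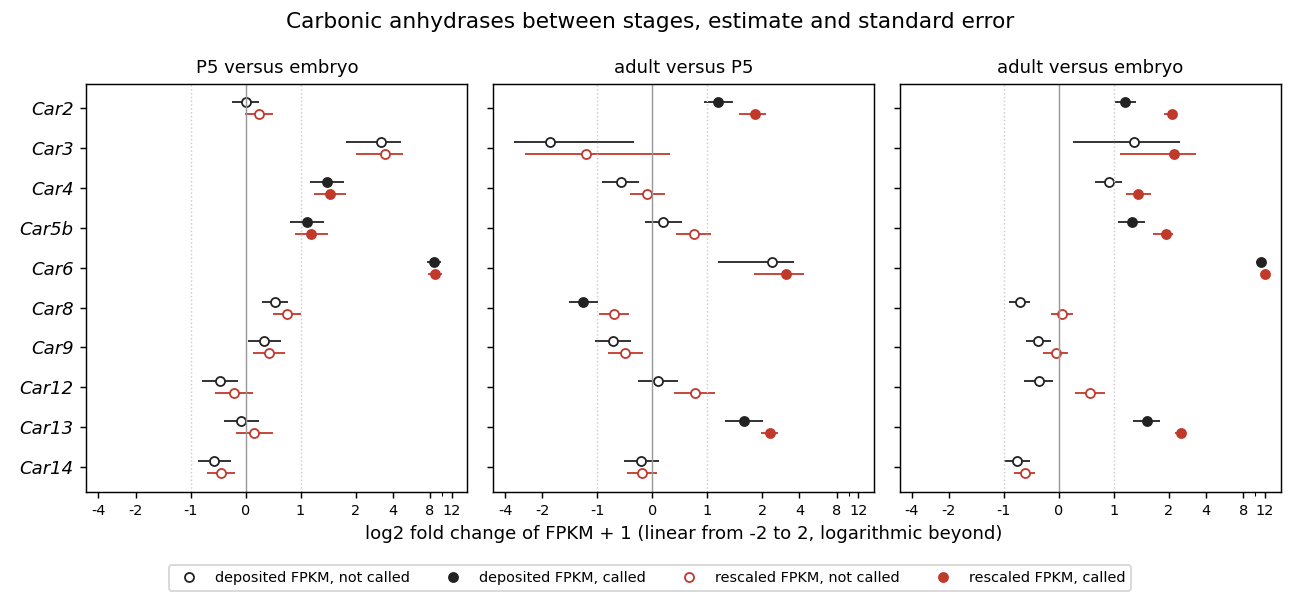
Differences of the 10 carbonic anhydrases between stages on the log2(FPKM + 1) scale, as estimates with their standard errors, from deposited FPKM (black) and FPKM rescaled to the median ratio (red), filled where called. The axis is linear between -2 and 2 and logarithmic beyond. Rescaled values lie to the right in both adult comparisons, so that Car8 moves from -1.25 to -0.69 against P5 and Car12 from -0.37 to 0.56 against the embryo.

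Genes for the transport of bicarbonate and protons, the products of these enzymes, were counted from a list of 22, of which 14 were tested. Adcy10, an enzyme and not a transporter, is on this list and was not tested. At P5 against the embryo 3 were called higher and 1 lower, beside 4.14% and 8.14% of all genes, with a median of 0.21 where that of all genes was -0.25. The 3 largest differences were those of Slc4a11 (2.12 ± 0.32), Slc4a1, the anion exchanger of red cells (-1.86 ± 0.35), and Slc26a6, an apical anion exchanger (1.59 ± 0.62). In the adult against P5 1 was called higher and 3 lower, beside 2.31% and 20.8% of all genes. They were Slc9a2, a sodium-proton exchanger (1.42), and Slc26a6 (-1.83), Slc26a7 (-1.75) and Slc4a3 (-1.74). In the adult against the embryo 5 were called higher and 3 lower, beside 5.58% and 38.0%, with a median of -0.35 where that of all genes was -0.75. Cftr, the chloride and bicarbonate channel, had the largest of these differences with 2.31 ± 0.44, from a mean of 2.59 FPKM in the embryo to 18.7 in the adult. Slc4a1 (-2.28) and Slc26a7 (-2.16) followed. Slc4a1 is also on the list of 6 erythroid markers, which summed to 67.9 to 173 FPKM in the embryo and to at most 4.3 in the adult. Most of each sum was Alas2.

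Likeness over the 13 samples was described by Pearson's r of log2(FPKM + 1), with no p, since the points share libraries and scaling. The 3 genes most like Car6 were the secretoglobins Scgb2b27 (r = 0.995), Scgb2b26 (0.990) and Scgb1b27 (0.989), and those most like Car3 were Acad10 (0.933), Tnfsf13 (0.927) and Adipoq (0.924). For Car2 they were Kiss1 (0.966), Sult1e1 (0.957) and Arrdc5 (0.956), for Car13 Rnf11 (0.957), Faim2 (0.947) and Lgals3 (0.943), and for Car8 4930452B06Rik (0.982), Cryl1 (0.967) and Thbd (0.963). Car5b was most like Tmem125 (0.979), Mfsd4 (0.977) and Svip (0.977), and Car14 most like Pnmal2 (0.981), Dok5 (0.979) and Slc1a4 (0.978). The values were lower for Car4, with Aox1 (0.928), Art3 (0.918) and Kcnab3 (0.903), for Car9, with E030030I06Rik (0.939), Nat6 (0.917) and Acaa1a (0.909), and for Car12, with Rtn3 (0.897), Rnf6 (0.885) and Slc15a2 (0.872).

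Of the 6 carbonic anhydrase genes outside the 10, Car1, Car5a and Car10 stayed below 1 FPKM in all 13 samples and were not tested. Car1, the isoform of red cells, reached 0.20 FPKM. The erythroid marker Alas2 was 55.3 to 156 FPKM in the embryo, while the globin genes Hba-a1 and Hbb-b1 were listed at 0 and at most 0.44 FPKM. Car7, Car11 and Car15 were tested, with highest values of 1.12, 4.11 and 2.43 FPKM. Their largest differences between stages were under the size for a call, at -0.79 ± 0.21 for Car11 in the adult against the embryo (limma adjusted p = 0.0039) and -0.65 ± 0.19 for Car7 in the adult against P5 (limma adjusted p = 0.013).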

How the data were processed

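Submandibular glands were profiled by RNA-seq in 13 samples at 6 time points. Reads were single-end and 50 bp long. For their alignment to mm9 the authors used TopHat2 2.0.13 with Bowtie2 2.2.6, and for counting per UCSC gene featureCounts, which dropped reads of several places or genes. They deposited FPKM per gene derived with DESeq2 1.10.1, tools and versions as in the submitters' processing notes. The deposited FPKM scaled with the total of each sample: median-of-ratios factors, over 13039 genes above 0 in all samples, were 1.15 to 1.38 in the embryo, 1.03 and 1.09 at P5 and 0.617 to 0.714 in the adult. The comparisons used FPKM and not read counts, and no count model was fitted. The depth of each sample was recovered from the FPKM steps and the annotated lengths. Reads of a carbonic anhydrase were recovered with the smallest length that made its values whole, within 0.002 of a whole number. Only values under 20000 reads were checked in this way, which for Car6 were those of 7 of the 13 samples.

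The members and the lists were chosen with earlier results of these data known. The 14650 of 23364 genes that reached 1 FPKM in any sample were compared as log2(FPKM + 1) by limma 3.58.1 in R 4.3.3 (linear model, contrasts and empirical Bayes with a mean-variance trend, no replicate block), with Benjamini-Hochberg adjustment over all of them. A fold change on this scale understates the change of low genes. Stages were compared in 1 fit with the embryonic ages as replicates, and successive time points in a second fit. A call needed both a log2 fold change of 1 or more, up or down, and an adjusted p under 0.1. The embryonic samples are pools of animals per the methods. The paper calls the samples of a time point biological replicates, and gives no number of animals for the P5, 4wk and 12wk samples. The p-values measure only the spread between these samples. The fits were tested on simulated data with known changes. Named are all members, of each list the called genes with the 3 largest changes in each comparison of stages, plus any gene a result turns on, and the 3 genes most like each member. Alternatives were a pseudocount of 0.1, 2 other filters, median-of-ratios rescaling, no variance trend and the replicate block. Others were only the groups compared and an adjusted p below 0.05. Stages were also compared within the fit of time points, with each time point weighted equally. Further alternatives left out the 4wk samples, each sample in turn, and, added after seeing the data, the E14.5 samples. Coding stretches were taken from GENCODE vM1 transcripts after alignment of their translations to Car2. Python 3.11.15 with pandas 2.3.3 and matplotlib 3.10.9 was used for tables and figures.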

Additional observations from a re-analysis of the deposited data

Results flagged for a closer look

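Within the 7 embryonic and the 4 adult samples, the highest or lowest value of a gene was set against the gap to its neighbour by Dixon's criterion, in 20 groups. The criterion marks about 1 group in 20 where values are drawn from 1 normal distribution. FPKM over several ages are not such values, so the number marked cannot be read against that share. It marked 5 values. Car3 was 173 FPKM in E18.5 replicate 1, where the other embryonic samples ran from 1.15 to 44.97, and 173 FPKM in 4wk replicate 1, where the other adult samples ran from 6.57 to 34.2. Car13 was 5.10 FPKM in E14.5 replicate 1, below 10.1 to 12.9 in the other embryonic samples. Car2 was 45.7 FPKM in 4wk replicate 2, above 20.7 to 24.4 in the other adult samples. Car14 was 0.022 FPKM in 12wk replicate 2, a single read, with the other adult samples at 0, where any value above 0 meets the criterion. The embryonic and adult groups hold several ages each, so a marked value can be that of an age as well as of a sample.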

How the results depend on the processing

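Leaving out each sample in turn, the number of members called ran from 1 to 4 at P5 against the embryo, 2 to 4 in the adult against P5, 3 to 5 in the adult against the embryo, 1 to 2 in each of the 3 steps from E14.5 to P5, 4 to 5 from P5 to 4wk and 0 to 2 from 4wk to 12wk. With a pseudocount of 0.1 the counts were 2 from E14.5 to E16.5, 3 from E16.5 to E18.5, 1 from E18.5 to P5 and 2 from 4wk to 12wk. With only the groups compared they were 2 from E14.5 to E16.5 and 1 from E18.5 to P5, with an adjusted p below 0.05 the count was 1 from E18.5 to P5, and with rescaled values it was 2 from 4wk to 12wk. Of 33 gene results under 740 alternative values, 692 kept direction and call, 18 lost the call, 25 gained one and 5 changed sign. The sign changes were Car8 (0.062) and Car12 (0.56) in the adult against the embryo after rescaling, Car12 in the same comparison without both 4wk samples (0.19), Car3 in it without the 3 E14.5 samples (-0.14), and Car3 from P5 to 4wk without 4wk replicate 2 (0.57, but -3.95 without replicate 1). The cause was not tested. After rescaling, all genes called were split into 193 higher and 171 lower from E16.5 to E18.5 (159 and 271 as deposited), 347 and 262 from E18.5 to P5 (303 and 435), and 933 and 1278 from P5 to 4wk (321 and 3235). The replicate block gave 3, 3, 4, 1, 1, 2, 4 and 1 members called, the same counts as without it. Same-numbered samples did not deviate together on average from the means of their time points (mean r -0.02 over 30 pairs of samples, from -0.35 to 0.27). The mean r was 0.01 over 40 pairs with different numbers. In a time point of 2 samples the deviations mirror each other, so these means are not independent. They cannot show that no samples are paired. The 4wk samples, with 5817293 and 7957918 reads, limit the low values most: 3 reads were worth 0.40 and 0.29 FPKM of Car4.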
